A study of Homo sapiens with 20 samples.

Results

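The genes described here are the 3 superoxide dismutases SOD1, SOD2 and SOD3, the catalase CAT, the 4 glutaredoxins GLRX, GLRX2, GLRX3 and GLRX5, and the 2 thioredoxins TXN and TXN2. They were taken by symbol from the deposited count table, where each symbol stands in 1 of 60656 rows, and all 10 passed the filter on low counts together with the other rows of the 24790 tested. The list was drawn up with earlier results of these data in view: GLRX2 had been selected on its CPM, which was low in some libraries, and the others were chosen by family. GLRX2 values are therefore a description without a test. Superoxide dismutases turn superoxide into hydrogen peroxide, which catalase breaks down to water and oxygen. Thioredoxins and glutaredoxins are small proteins that reduce disulfides in other proteins, drawing their electrons from NADPH through thioredoxin reductase or through glutathione, and some glutaredoxins carry iron-sulfur clusters instead. Pancreatic tumour cells produce much superoxide and peroxide, and these enzymes hold both in check.

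RNA was sequenced in 20 samples, 5 for each of 4 treatments from traditional Chinese medicine. The labels give the treatments as clearing heat and removing dampness (heat-clearing below), strengthening spleen and regulating qi (spleen-strengthening), eliminating heat by nourishing yin (yin-nourishing) and activating blood and removing stasis (blood-activating). Every sample is labelled SW1990, 1 established human pancreatic cancer cell line, while the series speaks of a mouse model. No herb, dose, duration or untreated group is given, so each value sets 1 treatment against another, and the 6 pairs of treatments share their samples. Nothing says whether replicates are separate animals or cultures, so p-values measure only the spread between these samples.

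Libraries held 81.7 to 135 M (mega) counts. In 5 of them, heat-clearing 1 and 2 and blood-activating 1, 8 and 9, the small nuclear RNA RN7SK made up 5.25 to 7.38% of all counts, while its share elsewhere was 1.57 to 3.02%. In these RN7SK-high libraries the share of mitochondrially encoded mRNA was 10.6 to 15.6%, and it was 17.1 to 23.2% in the remaining 15. Since only 2 treatments hold them, results are also given without them. Epithelial tumour markers (KRT8, KRT18, KRT19, KRT7, EPCAM and CDH1) summed to 1726 to 2769 CPM (counts per M counts, normalised between libraries by TMM). Markers of acinar cells summed to 0.315 to 719 CPM, of fibroblasts and vessel wall to 18.4 to 69.3 CPM, of endothelium to 7.17 to 23.5 CPM, of leukocytes to 51.1 to 86.8 CPM, of red blood cells to 0 to 1.5 CPM and of hepatocytes to 0 to 1.29 CPM. The leukocyte sum was mostly CD68 (36.2 to 76.7 CPM), while PTPRC reached 0.779, CD14 1.46, CSF1R 1.07 and LYZ 15.2 CPM at most. The endothelial sum was mostly PECAM1 (5.23 to 20.5 CPM), while CDH5 reached 1.55, KDR 0.537 and VWF 3.82 CPM at most. The fibroblast and vessel wall sum was mostly COL1A1 (13.3 to 54.4 CPM). A sum that rests mostly on 1 gene is weak evidence of a cell type. No marker was at 0 in all 20 libraries. In bulk RNA, fewer cells of a type and less RNA per cell cannot be told apart.

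Promoter sequences are shown for the 3 members whose values differed most by library or treatment, GLRX, GLRX2 and SOD3. They come from RefSeq on GRCh38.p14, run 5′ to 3′ on the gene's own strand, and cover 250 bases before to 50 after a transcription start. That table held 7 of the 10 members. GLRX2 has 3 starts there, of which the first and the third are shown because their base composition differs. The GLRX start and the first GLRX2 start are also transcript starts in GENCODE 29. The third GLRX2 start and the SOD3 start are not. Capitals mark matches on either strand to the GC box (GGGCGG), the box spelled CCAAT and a loose form of the NF-kB site (GGG, then any 5 bases, then CC).
GLRX, chr5:95822677-95822976, minus strand: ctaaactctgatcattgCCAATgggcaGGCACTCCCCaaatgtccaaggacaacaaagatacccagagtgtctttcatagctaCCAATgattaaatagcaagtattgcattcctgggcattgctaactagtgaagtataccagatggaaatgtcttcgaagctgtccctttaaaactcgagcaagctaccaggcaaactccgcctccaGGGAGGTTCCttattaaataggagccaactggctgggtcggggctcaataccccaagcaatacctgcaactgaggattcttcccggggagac
GLRX2, the first start, chr1:193106065-193106364, minus strand: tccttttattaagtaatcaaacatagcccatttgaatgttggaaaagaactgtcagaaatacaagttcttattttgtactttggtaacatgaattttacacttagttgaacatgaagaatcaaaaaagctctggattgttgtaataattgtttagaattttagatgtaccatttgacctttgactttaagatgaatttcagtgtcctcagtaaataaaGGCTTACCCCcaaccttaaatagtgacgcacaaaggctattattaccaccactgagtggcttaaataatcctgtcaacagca
GLRX2, the third start, chr1:193105365-193105664, minus strand: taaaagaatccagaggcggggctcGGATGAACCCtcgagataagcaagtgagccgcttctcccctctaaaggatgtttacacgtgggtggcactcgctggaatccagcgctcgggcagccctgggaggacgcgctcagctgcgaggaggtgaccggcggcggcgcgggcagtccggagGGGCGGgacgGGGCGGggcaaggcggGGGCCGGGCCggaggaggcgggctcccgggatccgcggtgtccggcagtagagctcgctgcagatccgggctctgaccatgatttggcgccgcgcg
SOD3, chr4:24795323-24795622, plus strand: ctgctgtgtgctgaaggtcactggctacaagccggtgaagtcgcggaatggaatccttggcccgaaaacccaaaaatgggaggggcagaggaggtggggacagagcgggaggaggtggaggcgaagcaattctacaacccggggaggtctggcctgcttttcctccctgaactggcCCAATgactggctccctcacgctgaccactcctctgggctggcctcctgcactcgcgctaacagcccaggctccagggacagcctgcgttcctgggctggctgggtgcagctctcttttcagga
The GLRX promoter held 2 CCAAT and 2 NF-kB matches at 47.7% GC, where the median over the 35116 promoters of the table is 58.7% GC. The first GLRX2 start, at 32.7% GC, held 1 NF-kB match, and the third, at 69.3% GC, held 2 of these and 2 GGGCGG matches. SOD3 held 1 CCAAT match at 61.7% GC. Of all promoters in the table, 34.6% hold CCAAT, 45.0% hold GGGCGG and 58.7% hold the NF-kB form. TATAAA (the TATA box, in 11.5% of promoters), TGACNNNGC (the antioxidant response element core, in 13.3%) and TGANTCA (the AP-1 site, in 7.71%) had no match in these 4 windows, which says only that the letters are not there. None of these matches is evidence of a bound factor.

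Treatments were compared first over all 10 genes, to ask which of them differ between treatments. No member passed an adjusted p of 0.05 in the edgeR test of any difference among the 4 treatments, in which 0% of the 24790 genes passed. The counts that follow leave out GLRX2. At an unadjusted p under 0.05 that test held 2 of the 9 other members, SOD3 and GLRX5, beside 15.4% of all genes. In the 6 pairs edgeR also called 0 members, beside 0.00807% of all genes in heat-clearing against spleen-strengthening and 0% in the other 5 pairs. Unadjusted, 5 of the 9 passed in yin-nourishing against blood-activating (18.2% of all genes), 4 in heat-clearing against yin-nourishing (10.3%), 2 in spleen-strengthening against blood-activating (20.5%) and 2 in heat-clearing against spleen-strengthening (11.5%). The remaining pairs, heat-clearing against blood-activating and spleen-strengthening against yin-nourishing, had 0 (1.86% and 4.72% of all genes). The other tools called more, among the members and among all genes. In the 4-group test DESeq2 called 1 of the 9 (SOD3; 9.18% of the genes it gave an adjusted p) and limma voom 2 (SOD3 and GLRX; 8.77% of all genes). In spleen-strengthening against blood-activating DESeq2 called SOD3 (14.1%) and limma voom SOD3, GLRX and GLRX5 (19.7%). In yin-nourishing against blood-activating DESeq2 called SOD3 (7.69%) and limma voom 5 of the 9, SOD1, SOD3, GLRX, GLRX3 and GLRX5 (16.9%). DESeq2 also called SOD3 in heat-clearing against spleen-strengthening (0.276%).

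**Figure D1:**
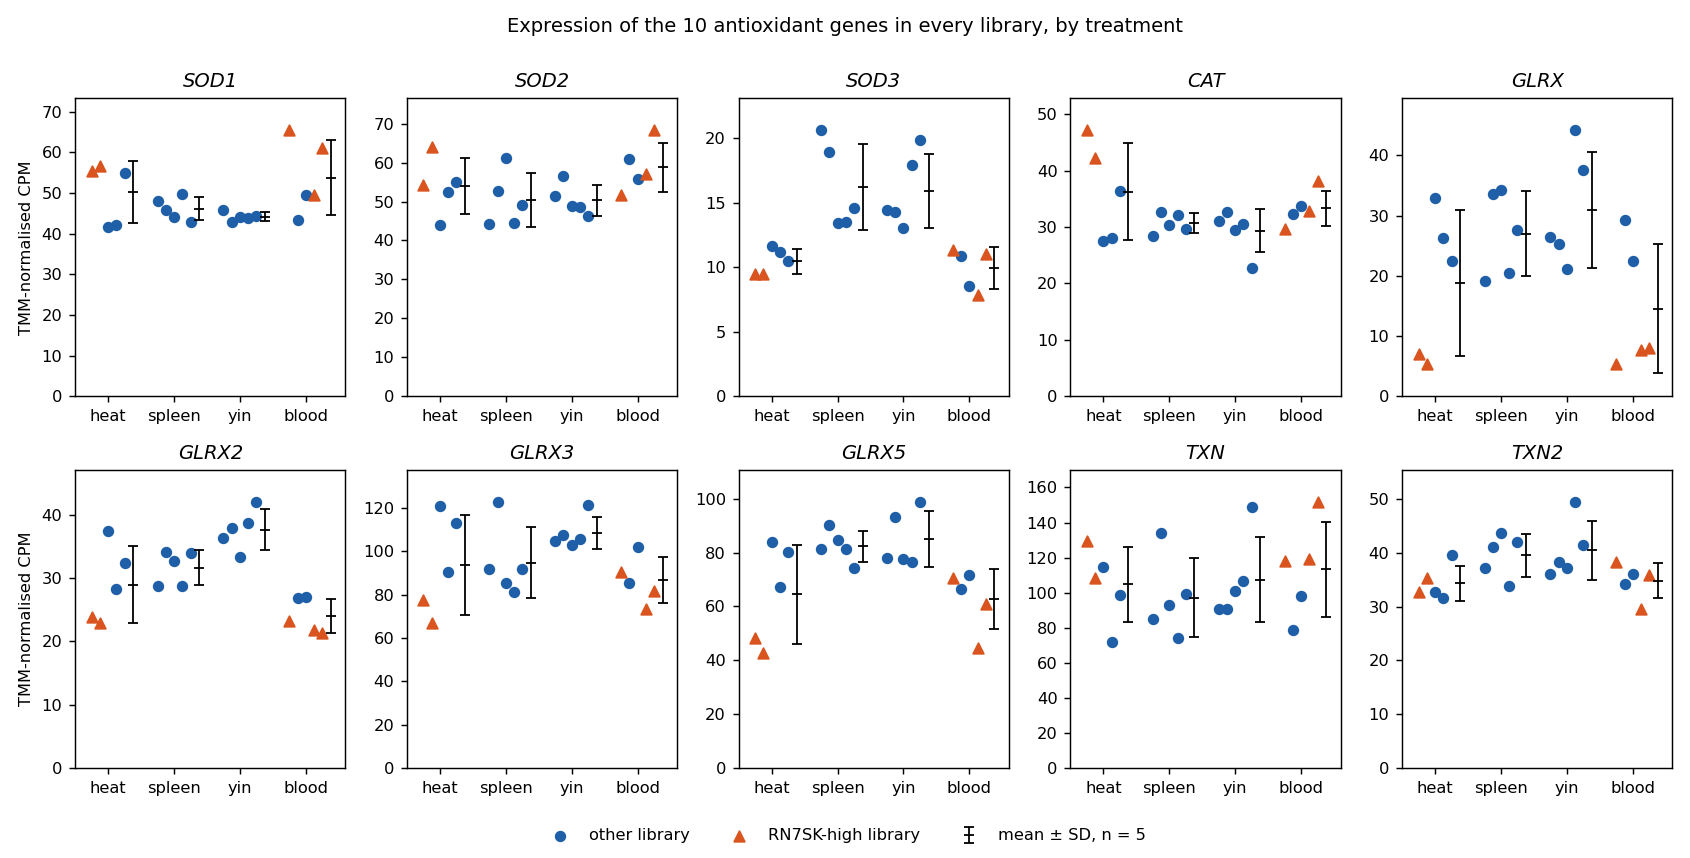
TMM-normalised CPM of each of the 10 genes in the 20 libraries, by treatment (5 libraries each, in order of replicate number), with the mean and SD beside each group and triangles for the 5 RN7SK-high libraries. All 10 spleen-strengthening and yin-nourishing values of SOD3 (13.1 CPM and above) stand over the 10 others (11.7 CPM and below), and the 5 triangles of GLRX (5.31 to 8.0 CPM) stand below every other point (19.1 CPM and above).

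SOD3, the dismutase secreted to the cell surface and matrix, separated the treatments most clearly. The gene lies on chromosome 4 at 24789912 to 24800842 (plus strand, GENCODE 29 on GRCh38). The last sequence above surrounds a RefSeq start at 24795573, which lies inside that span and is not a transcript start in GENCODE 29. Spleen-strengthening libraries held 20.6, 18.9, 13.4, 13.5 and 14.6 CPM and yin-nourishing libraries 14.4, 14.3, 13.1, 17.9 and 19.9 CPM (replicates in order of their numbers). Heat-clearing libraries held 9.47, 9.48, 11.7, 11.1 and 10.5 CPM and blood-activating libraries 11.3, 10.9, 8.55, 7.84 and 11.1 CPM. Every library of the first pair of treatments thus lay above every library of the second, whether RN7SK-high or not. These values rest on 794 to 2202 counts per library.

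The group means of SOD3 were 16.2 ± 3.32 CPM (SD, n = 5) for spleen-strengthening, 15.9 ± 2.85 for yin-nourishing, 10.4 ± 0.984 for heat-clearing and 9.93 ± 1.61 for blood-activating. Neighbours within each of the 2 pairs did not differ beyond their spread, with log2 fold changes of 0.03 (SE 0.162) between spleen-strengthening and yin-nourishing and 0.07 (SE 0.162) between heat-clearing and blood-activating. Spleen-strengthening exceeded blood-activating by 0.71 on the log2 scale (SE 0.163), which did not pass in edgeR (adjusted p = 0.0835). In the 4-group test SOD3 ranked 15 of 24790 genes by p, and its adjusted p in edgeR was 0.172. It passed the same test in DESeq2 (adjusted p = 0.000593) and in limma voom (adjusted p = 0.025). Leaving out heat-clearing 3 or blood-activating 4 brought the spleen-strengthening to blood-activating difference past the threshold in edgeR (adjusted p = 0.0451 and 0.0264), with log2 fold changes of 0.70 and 0.72. No other single omission did so, and heat-clearing 3 is not in that pair and acts only through the shared fit. Such omissions also lifted many other genes. In that pair edgeR called 2002 genes without blood-activating 4 and 0 with all libraries. In the edgeR 4-group test, leaving out heat-clearing 3 lowered the adjusted p of SOD3 to 0.044, in a fit that called 378 genes. Leaving out blood-activating 8 or 9 raised it to 0.348 and 0.367.

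Without the 5 RN7SK-high libraries the difference was as large, 0.74 on the log2 scale (SE 0.217), though edgeR no longer gave it a small adjusted p (0.647) with 3 heat-clearing and 2 blood-activating libraries left. The 5 remaining heat-clearing and blood-activating libraries held 8.55 to 11.7 CPM. A complete separation of the 10 libraries of these treatments from the 10 others, a grouping seen only after the values were, occurred in 3 of 24790 genes (0.0121%). SOD3 was the 1 gene higher in spleen-strengthening and yin-nourishing (0.00403%), and CD320, the receptor that takes up vitamin B12, and TAF1C, a subunit of a factor for RNA polymerase I, were the lower ones. CD320 averaged 4.94 against 10.1 CPM and TAF1C 5.46 against 10.8 CPM. The grouping was taken from the SOD3 values, so SOD3 had to be among the 3 genes. These shares therefore do not show how unusual SOD3 is, and other groupings of the treatments were not counted.

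SOD3 is known as a product of vessel wall cells, so the markers of such cells are given beside it. Fibroblast and vessel wall markers summed to 24.0 to 53.6 CPM in spleen-strengthening, 20.9 to 41.2 in yin-nourishing, 19.1 to 62.6 in heat-clearing and 18.4 to 69.3 in blood-activating libraries. Endothelial markers summed to 13.4 to 23.5, 9.85 to 14.9, 9.28 to 13.1 and 7.17 to 18.3 CPM in the same order. Taken over all their libraries, the 2 sides of the SOD3 separation overlapped in both sums. By pair, the endothelial sum was higher in every spleen-strengthening library than in every heat-clearing one. It overlapped in the other pairs across the sides. The part of either sum in the SOD3 separation was not tested. The first sum was mostly COL1A1 (13.3 to 54.4 CPM), with PDGFRB at 0.683 and ACTA2 at 3.27 CPM at most. How mouse reads were handled is not given, so the sums need not reflect any mouse cells present. They therefore say little about vessel wall cells.

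SOD1, the cytosolic copper and zinc enzyme (chromosome 21, 31659622 to 31668931, plus strand), had its higher means on the opposite side when all libraries were counted. Its group means were 53.8 ± 9.16 CPM for blood-activating, 50.2 ± 7.57 for heat-clearing, 46.1 ± 2.82 for spleen-strengthening and 44.2 ± 1.09 for yin-nourishing, and all groups overlapped. The largest pair, yin-nourishing against blood-activating, was -0.28 on the log2 scale (SE 0.116, edgeR adjusted p = 0.194) and -0.07 without the RN7SK-high libraries. Without them the SOD1 means were closer together, at 46.4 CPM for blood-activating (n = 2) and 46.2 for heat-clearing (n = 3). Those of spleen-strengthening and yin-nourishing, which hold no such library, stayed at 46.1 and 44.2 CPM. In the RN7SK-high libraries SOD1 held 49.4 to 65.4 CPM, and in the other 15 it held 41.7 to 54.9 CPM. SOD2, the manganese enzyme of mitochondria, averaged 58.7 ± 6.29 CPM in blood-activating, 54.0 ± 7.19 in heat-clearing, 50.3 ± 6.94 in spleen-strengthening and 50.3 ± 3.89 in yin-nourishing libraries. Its largest pair gave -0.22 for yin-nourishing against blood-activating (SE 0.113, edgeR adjusted p = 0.302). GENCODE 29 holds 2 records with the symbol SOD2 on the minus strand of chromosome 6, at 159669057 to 159745186 and at 159679119 to 159762529, which overlap WTAP and ACAT2 on the other strand. How the table assigned reads among them is not given in the sources used here, so the SOD2 values are uncertain to that extent.

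CAT, the peroxisomal catalase (chromosome 11, 34438925 to 34472062, plus strand), averaged 36.3 ± 8.63 CPM in heat-clearing, 33.3 ± 3.08 in blood-activating, 30.6 ± 1.77 in spleen-strengthening and 29.3 ± 3.81 in yin-nourishing libraries. Heat-clearing libraries held 47.2, 42.2, 27.5, 28.04 and 36.4 CPM, so the 2 highest were the RN7SK-high ones. The largest pair, heat-clearing against yin-nourishing, was 0.31 on the log2 scale (SE 0.139, edgeR adjusted p = 0.476) and 0.07 without the RN7SK-high libraries. Blood-activating libraries did not show the same split, with 29.6 to 38.1 CPM in the 3 RN7SK-high and 32.3 to 33.7 CPM in the 2 others.

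**Figure D2:**
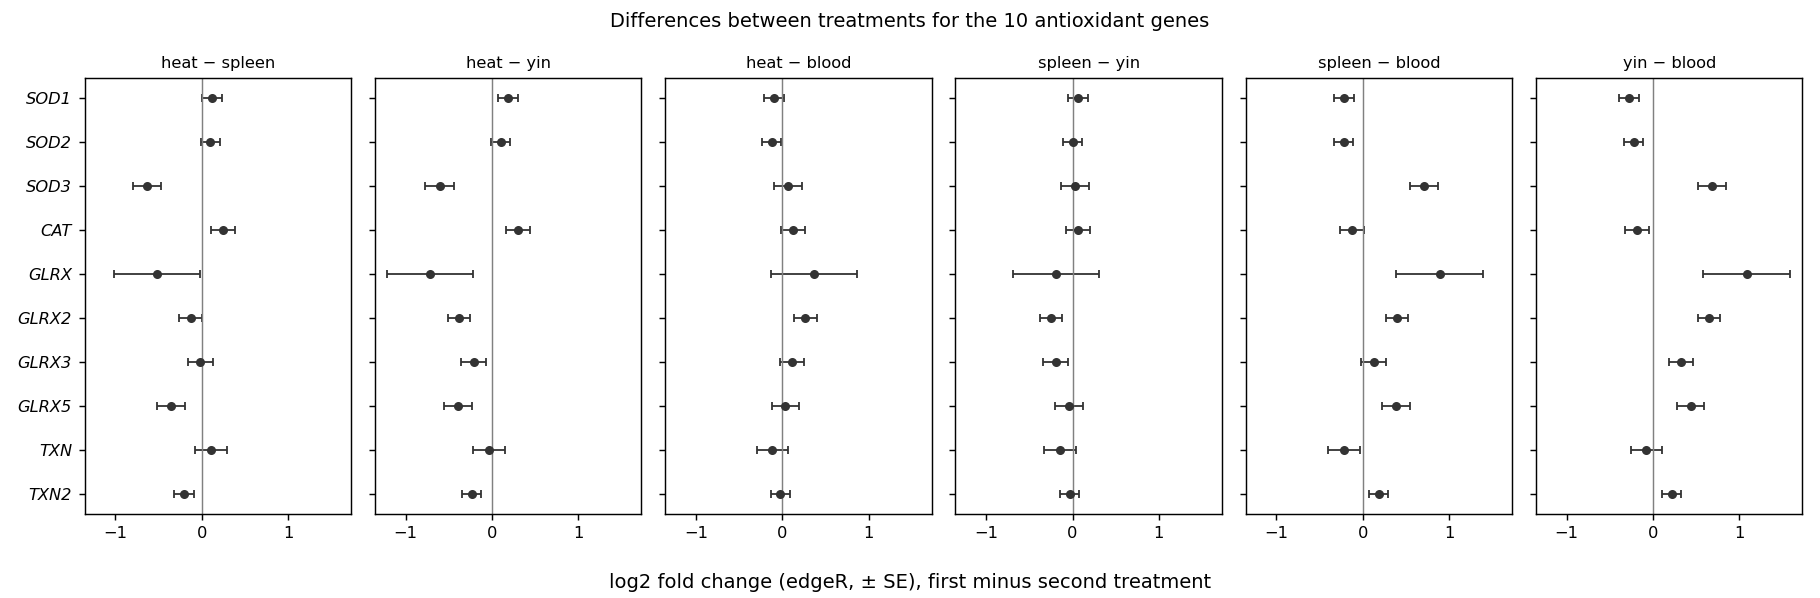
Log2 fold change with its SE from edgeR for each of the 10 genes in each of the 6 pairs of treatments, first minus second. SOD3 lies near 0 in the pairs heat minus blood (0.07) and spleen minus yin (0.03) and at 0.71 in spleen minus blood, while GLRX has the widest SE (0.503 in yin minus blood).

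GLRX, the cytosolic glutaredoxin that removes glutathione from protein thiols (chromosome 5, 95751319 to 95823005, minus strand), had the widest range of the 10 genes, 8.31-fold over the 20 libraries. Heat-clearing libraries held 6.99, 5.32, 33.0, 26.3 and 22.5 CPM and blood-activating libraries 5.31, 29.3, 22.4, 7.64 and 8.0 CPM. Spleen-strengthening libraries held 19.1, 33.5, 34.3, 20.4 and 27.6 CPM and yin-nourishing libraries 26.5, 25.2, 21.1, 44.2 and 37.5 CPM. The 5 low values are the 5 RN7SK-high libraries, and every other library was at least 2.39 times the highest of them. These values rest on 498 to 3912 counts per library.

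Across treatments the GLRX means were 30.9 ± 9.59 CPM for yin-nourishing, 27.0 ± 7.09 for spleen-strengthening, 18.8 ± 12.2 for heat-clearing and 14.5 ± 10.7 for blood-activating (SD, n = 5), with all ranges overlapping. Yin-nourishing exceeded blood-activating by 1.09 on the log2 scale (SE 0.503), which did not pass in edgeR (adjusted p = 0.259) and passed in limma voom at 1.63 (adjusted p = 0.0141). Without the RN7SK-high libraries that difference was 0.26 (SE 0.282) and with a term for them 0.18 (SE 0.240). The 4 group means then came to 30.9 ± 9.59, 27.0 ± 7.09, 27.2 ± 5.31 (n = 3) and 25.9 ± 4.90 CPM (n = 2), closer together than the libraries within a group.

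**Figure D3:**
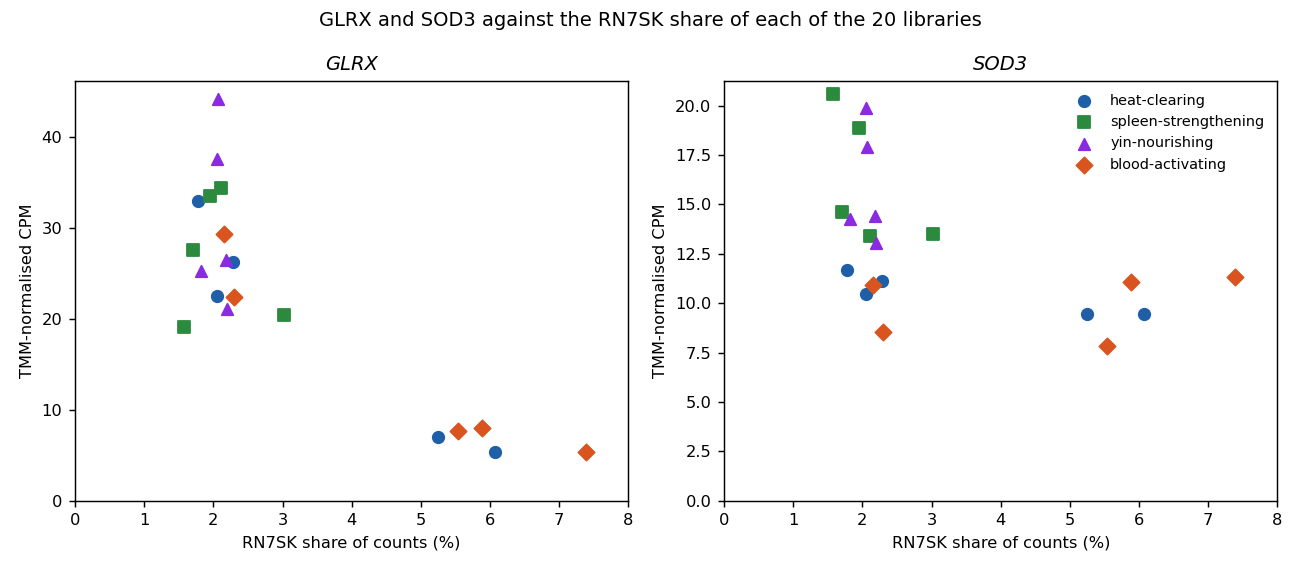
GLRX (left) and SOD3 (right) in TMM-normalised CPM against the RN7SK share of counts in each of the 20 libraries, marked by treatment. GLRX is at 5.31 to 8.0 CPM in the 5 libraries with an RN7SK share of 5.25% or more and at 19.1 to 44.2 CPM in the 15 others, while SOD3 separates by treatment on the left of its panel too.

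GLRX averaged 28.2 ± 7.11 CPM in the 15 other libraries and 6.65 ± 1.27 CPM in the 5 RN7SK-high ones, a ratio of 4.24. Within treatments the log2 ratio of RN7SK-high to other libraries was -2.15 in heat-clearing and -1.89 in blood-activating, at percentiles 3.22 and 3.79 of all tested genes. Non-overlap of this kind was common in these libraries. In 22.4% of all tested genes the RN7SK-high libraries lay wholly on 1 side of the others within both treatments, and in 10% they lay lower, as for GLRX. All 5 lay apart from all 15 others in 12.6% of genes, and below them in 5.39%. GLRX kept its side under TMM, RLE and upper quartile scaling and in CPM without scaling. The longest coding transcript of GLRX has 43.9% GC, and the 2973 genes within 2.5 points of that had median log2 ratios of -0.20 and -0.17. RHOBTB3, which overlaps GLRX on the other strand, held 71.1 to 119 CPM in the RN7SK-high libraries and 90.0 to 145 CPM in the others. What sets the RN7SK-high libraries apart was not tested.

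GLRX2, the glutaredoxin of mitochondria and nucleus that can bind an iron-sulfur cluster (chromosome 1, 193090866 to 193106114, minus strand), held 36.3, 37.8, 33.3, 38.7 and 42.0 CPM in yin-nourishing libraries and 28.7, 34.1, 32.8, 28.7 and 33.9 CPM in spleen-strengthening libraries. Heat-clearing libraries held 23.8, 22.9, 37.4, 28.2 and 32.4 CPM and blood-activating libraries 23.3, 26.8, 27.0, 21.8 and 21.3 CPM. The blood-activating values lay below all yin-nourishing and spleen-strengthening ones, and within heat-clearing the 2 low values were the RN7SK-high libraries. The means were 37.6 ± 3.20, 31.6 ± 2.72, 28.95 ± 6.07 and 24.1 ± 2.70 CPM in that order of treatments. Yin-nourishing minus blood-activating was 0.65 on the log2 scale (SE 0.131), 0.49 without the RN7SK-high libraries and 0.42 with a term for them. All 5 RN7SK-high libraries, at 21.3 to 23.8 CPM, were below the 15 others, at 26.8 to 42.0 CPM, with log2 ratios of -0.48 in heat-clearing and -0.28 in blood-activating. Those of genes of like GC content (2988 genes) were -0.27 and -0.24 at the median, so the GLRX2 ratio lies nearer to that of such genes than the GLRX ratio does. RO60 (TROVE2 in GENCODE 29), which overlaps GLRX2 on the other strand, held 90.0 to 136 CPM in the RN7SK-high and 154 to 186 CPM in the other libraries. The libraries keep strand per the labels, but the strand setting of the counting is not given in the sources used here, so reads of GLRX2 and RO60, or of GLRX and RHOBTB3, may not be fully told apart.

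GLRX5 and GLRX3, the glutaredoxins that carry iron-sulfur clusters in mitochondria and cytosol, were lower in blood-activating than in yin-nourishing libraries by range. GLRX5 (chromosome 14, 95533503 to 95544724, plus strand) held 78.2, 93.2, 77.6, 76.6 and 98.9 CPM in yin-nourishing and 70.5, 66.6, 71.8, 44.4 and 60.9 CPM in blood-activating libraries. Its means were 84.9 ± 10.4 CPM for yin-nourishing, 82.3 ± 5.88 for spleen-strengthening, 64.5 ± 18.4 for heat-clearing and 62.8 ± 11.1 for blood-activating. Blood-activating did not overlap with either of the first 2, and the largest pair was 0.43 on the log2 scale (SE 0.161, edgeR adjusted p = 0.167), or 0.30 without the RN7SK-high libraries. In heat-clearing the RN7SK-high libraries held 42.8 to 48.4 CPM of GLRX5 against 67.3 to 83.8 CPM, whereas in blood-activating their 44.4 to 70.5 CPM overlapped with 66.6 to 71.8 CPM. GLRX3 (chromosome 10, 130136399 to 130184521, plus strand) averaged 109 ± 7.37 CPM in yin-nourishing, 94.7 ± 16.4 in spleen-strengthening, 93.8 ± 23.0 in heat-clearing and 86.7 ± 10.7 in blood-activating libraries. Yin-nourishing libraries (102.8 to 121 CPM) stood just above blood-activating ones (73.5 to 102.2 CPM), with a log2 fold change of 0.32 (SE 0.143, edgeR adjusted p = 0.229) that was 0.21 without the RN7SK-high libraries.

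Without GLRX2, 3 of the 9 other members had non-overlapping ranges in yin-nourishing against blood-activating (SOD3, GLRX3 and GLRX5), where 4.12% of all tested genes did. In spleen-strengthening against blood-activating there were 2 (SOD3 and GLRX5), beside 4.44% of all genes. Of the 10 members, only SOD3 separated heat-clearing from spleen-strengthening (1.26% of all genes) and from yin-nourishing (1.16%). No member separated heat-clearing from blood-activating (0.488%) or spleen-strengthening from yin-nourishing (0.77%). Because these pairs share samples, a gene low in the blood-activating group counts in more than 1 of them.

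TXN, the cytosolic thioredoxin (chromosome 9, 110243811 to 110256640, minus strand), showed no order of treatments beyond its spread. Its means were 113 ± 27.3 CPM for blood-activating, 107 ± 24.1 for yin-nourishing, 104.7 ± 21.4 for heat-clearing and 97.1 ± 22.5 for spleen-strengthening. The largest pair, spleen-strengthening against blood-activating, was -0.22 on the log2 scale (SE 0.185, edgeR adjusted p = 0.571) and changed sign to 0.14 without the RN7SK-high libraries and 0.064 with a term for them. Per length, though, TXN had the highest level of the 10 genes, at 121.6 ± 26.2 CPM per kb of the longest coding transcript (SD, n = 20). The next by that measure was SOD1 at 50.3 ± 7.03 CPM per kb, whose highest library (67.7) was below the lowest of TXN (83.0). TXN was also first by the total length of all its exons, at 92.5 CPM per kb. Ranks below it depend on which transcripts are taken as expressed, since those of SOD2 alone run from 507 to 14266 bases. TXN2, the mitochondrial thioredoxin (chromosome 22, 36467036 to 36482030, minus strand), averaged 40.4 ± 5.42 CPM in yin-nourishing, 39.6 ± 3.99 in spleen-strengthening, 34.8 ± 3.29 in blood-activating and 34.3 ± 3.24 in heat-clearing libraries. Heat-clearing minus yin-nourishing was -0.24 on the log2 scale (SE 0.112, edgeR adjusted p = 0.483) and -0.22 without the RN7SK-high libraries.

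Among themselves the members varied little apart from GLRX. The biological coefficient of variation within treatments, the spread between replicates beyond counting error, was 0.149 to 0.215 for 9 members and 0.534 for GLRX, with a median of 0.441 over all tested genes. Over the 20 libraries the highest value was 1.56 (SOD2) to 2.63 (SOD3) times the lowest for those 9. Without the RN7SK-high libraries the range of GLRX was 2.31-fold, close to that of SOD3 at 2.41-fold. The median coefficient over all tested genes was not matched for expression level, so it does not show that the members are unusually stable.

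**Figure D4:**
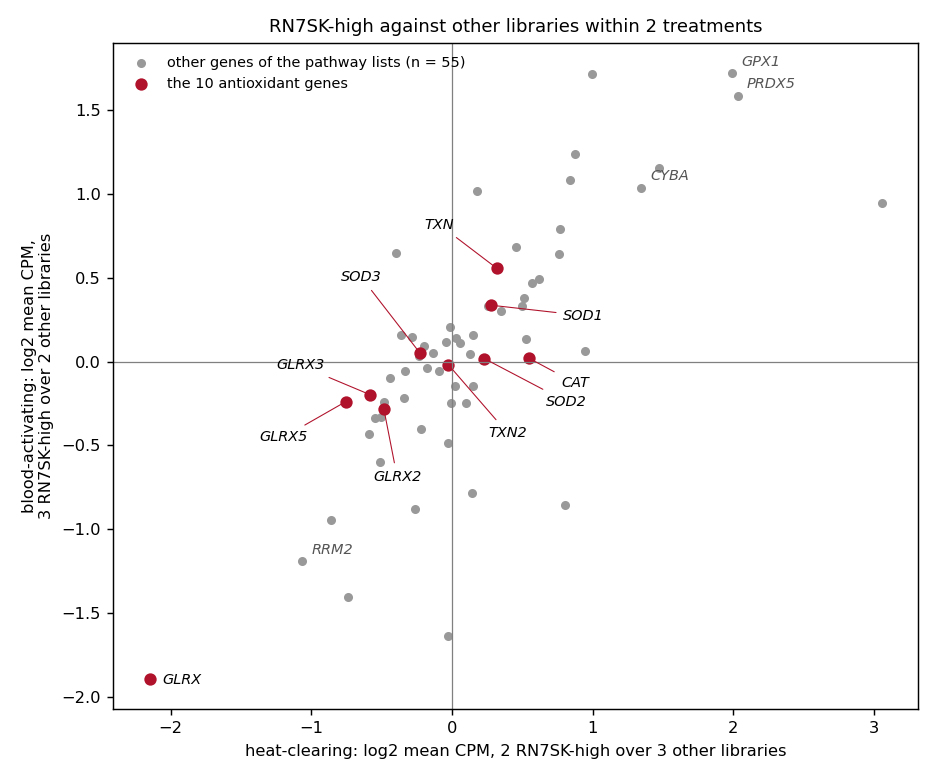
Log2 ratio of the mean CPM in RN7SK-high to that in other libraries within heat-clearing (x axis, 2 against 3 libraries) and blood-activating (y axis, 3 against 2), for the 10 genes and 55 other genes of the pathway lists. GLRX lies at -2.15 and -1.89, far from the other 9 members, whose ratios run from -0.76 to 0.54 and from -0.28 to 0.55, while GPX1 and PRDX5 lie at the opposite end.

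Genes around these enzymes were counted in 9 lists with 55 genes, all tested, and edgeR called 0 of them in the 4-group test or the 6 pairs. In the 4-group test DESeq2 called 6 of the 55, among them PRDX5, SRXN1, GPX3 and CYBA, and limma voom 8. The shares over genes were 9.18% in DESeq2, of the 13711 genes it gave an adjusted p, and 8.77% in limma voom, of all 24790. In spleen-strengthening against blood-activating they called 11 and 21, beside 14.1% and 19.7% of the same sets of genes. Among these lists the RN7SK-high libraries lay lower within both treatments for 6 genes and higher for 16, where the 9 members other than GLRX2 had 1 lower (GLRX) and 0 higher (all genes 10% and 12.3%). Of the enzymes that remove peroxide with thioredoxin or glutathione, PRDX5, a peroxiredoxin of mitochondria and peroxisomes, held 22.8 to 49.3 CPM in the RN7SK-high libraries and 6.53 to 13.8 CPM in the others. GPX1, the main cytosolic glutathione peroxidase, held 41.0 to 54.6 against 10.5 to 17.1 CPM, the opposite side from GLRX. SRXN1, which restores overoxidised peroxiredoxins, held 30.2 to 36.9 against 14.6 to 22.2 CPM. GPX3, the secreted glutathione peroxidase, overlapped at 28.5 to 64.4 against 18.9 to 34.5 CPM. Not all peroxide enzymes lay on that side. PRDX6, a peroxiredoxin that draws on glutathione, was lower in the RN7SK-high libraries within both treatments, with log2 ratios of -0.55 in heat-clearing and -0.33 in blood-activating.

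At an unadjusted p under 0.05 in the 4-group test (15.4% of all genes), the peroxiredoxin list held 4 of 7 genes, the glutathione peroxidases 3 of 6, glutathione synthesis and reduction 2 of 5, and the thioredoxin reductases and regulators 0 of 5. TXNRD2, the mitochondrial thioredoxin reductase, held 8.35 to 10.3 CPM in the RN7SK-high and 4.13 to 9.53 CPM in the other libraries, and the thioredoxin-like NXN 22.9 to 29.5 and 23.2 to 33.5 CPM. GCLM, a subunit of the enzyme that starts glutathione synthesis, averaged 22.4 ± 5.22 CPM in spleen-strengthening and 16.1 ± 1.74 to 17.6 ± 3.69 CPM in the other groups, and GSS, which completes glutathione, 49.4 ± 7.18 to 61.6 ± 4.70 CPM. The copper carriers that serve the dismutases had 0 of 3, with CCS, the chaperone that loads SOD1, at 1.09 to 4.05 CPM and ATOX1 at 28.4 to 41.5 CPM over the 20 libraries. Neither separated any pair of treatments.

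Sources of superoxide and peroxide had 2 of 5 genes at that threshold. CYBA, a membrane subunit of NADPH oxidases, held 26.1 to 40.2 CPM in the RN7SK-high and 9.21 to 17.9 CPM in the other libraries, and DUOX1, an oxidase that releases peroxide, 5.91 to 9.43 and 2.996 to 8.02 CPM. Mitochondrial iron-sulfur assembly, in which GLRX5 passes clusters on, had 3 of 9. LYRM4, a partner of the enzyme that supplies the sulfur, stood at 3.75 to 6.24 against 1.02 to 3.09 CPM and ISCA2, a later assembly factor, at 28.3 to 44.8 against 34.2 to 63.0 CPM, so LYRM4 separated the libraries and ISCA2 did not. Clients of thioredoxin and glutaredoxin had 0 of 7. RRM2, the small subunit of ribonucleotide reductase, held 58.1 to 89.8 against 115 to 195 CPM, on the same side as GLRX, and MSRB2, a mitochondrial methionine sulfoxide reductase, held 13.7 to 20.6 against 4.86 to 11.4 CPM. NF-kB targets that are often induced with SOD2 had 5 of 8. TNFAIP2 held 57.1 to 76.5 against 34.1 to 54.7 CPM and NFKB2, itself an NF-kB subunit, 12.2 to 17.0 against 6.99 to 11.7 CPM, where SOD2 itself overlapped at 51.7 to 68.3 against 43.9 to 61.1 CPM. In 12.6% of all tested genes the RN7SK-high libraries lay apart from all others. The genes named here had the smallest p of their lists in the 4-group test, and only 2 treatments hold RN7SK-high libraries, so the choice may favour such splits.

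In spleen-strengthening against blood-activating, the pair with the largest SOD3 difference, the median log2 fold change was 0.16 over the 10 members and -0.04 over all tested genes. It was -0.79 for the sources of superoxide and peroxide, -0.61 for the NF-kB targets, -0.55 for the glutathione peroxidases, -0.25 for iron-sulfur assembly, -0.14 for the copper carriers, -0.0045 for the thioredoxin reductases and regulators, 0.03 for the peroxiredoxins, 0.12 for the clients and 0.24 for glutathione synthesis and reduction. These medians rest on few genes, and some genes went the other way. Higher in spleen-strengthening were 1 of 5 sources, 3 of 8 NF-kB targets and 1 of 6 glutathione peroxidases. Among the sources NOX4 reached 0.327 CPM at most. The RN7SK-high libraries, 3 in blood-activating and 0 in spleen-strengthening, move with this pair, and their part in these medians was not tested. The median over the 10 members includes GLRX2 (0.40), which was selected on its values, so that median is a description only.

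By profile over the 20 libraries, the genes most like GLRX were COMMD6, THOC7 and NDUFC1, with a root mean square difference in centred log2 CPM of 0.28, 0.30 and 0.31, where the profile of GLRX itself has a root mean square of 0.95. COMMD6 ran from 12.3 to 69.0 CPM, and all 3 were lower in the RN7SK-high libraries within both treatments. Those most like GLRX2 were PDCD10, C3orf38 and PTS, each at 0.12 against 0.29 for GLRX2 itself. The search covered 14127 genes. Likewise SOD3 may be set beside genes of its own GC content, 68.2% in its longest coding transcript. The 456 genes within 2.5 points had median log2 ratios of RN7SK-high to other libraries of 0.92 in heat-clearing and 0.65 in blood-activating, whereas those of SOD3 were -0.23 and 0.05.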

How the data were processed

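The deposited table gives raw counts for each gene in each library, which the authors left unnormalised, judging from whole values whose totals differ. Per the submitters' processing notes the authors used HISAT2, StringTie and the build hg38, without versions, and per the labels rRNA was removed and a directional kit used. The annotation, the strand setting of the counting and how mouse reads were handled, which bear on genes that overlap, were not stated (not given in the sources used here).

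All 20 samples (4 groups of 5, 81.7 to 135 M counts) entered 1 fit in edgeR 4.0.16 (R 4.3.3) with TMM scaling, the default filter with a minimum count of 10 (24790 of 60656 rows), robust quasi-likelihood F-tests and Benjamini-Hochberg adjustment over all tested rows within a comparison, at 0.05. CPM are TMM-scaled, log2 CPM used a prior count of 2, and libraries above an RN7SK share of 4% were called RN7SK-high. DESeq2 1.42.0 and limma 3.58.1 (voom with quality weights) served as alternatives; shares for DESeq2 are of the genes to which its own filter left an adjusted p. Each member is given in the pair of treatments where its log2 fold change was largest, GLRX2 as a description only, and for each pathway list the 2 genes with the smallest p in the 4-group test. CD320, TAF1C, PRDX6, RHOBTB3 and RO60 were chosen after their values were seen. The genes, the lists and the RN7SK split were chosen with earlier results of these data known. Positions, lengths and GC come from GENCODE 29.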

Additional observations from a re-analysis of the deposited data

Results flagged for a closer look

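Of 40 combinations of a gene and a treatment, 3 had 1 library far from the other 4 by Dixon's criterion at 95%, which chance alone meets in about 1 of 20 groups. GLRX3 stood at 122.9 CPM in spleen-strengthening 5, where the others held 81.3 to 92.0 CPM. GLRX3 stood at 121.3 CPM in yin-nourishing 10, where the others held 102.8 to 107.5 CPM. TXN stood at 148.6 CPM in the same library, where the others held 90.4 to 106.5 CPM. None of these is an RN7SK-high library.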

How the results depend on the processing

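The count of members called in edgeR was 0 in the 4-group test and in each pair, and it stayed at 0 under RLE and upper quartile scaling, without a filter, under a strict filter (1 CPM in 5 samples), with the title letter as a term, without the RN7SK-high libraries, with a term for them and with each pair fitted alone. GLRX2, selected on its values, is included in the totals that follow only for completeness and supports nothing. The totals are therefore also given without it. DESeq2 called 2 members in the 4-group test and 1 in heat-clearing against spleen-strengthening. It called 2 in spleen-strengthening against blood-activating and 2 in yin-nourishing against blood-activating. Without GLRX2 it called SOD3 alone in each of these comparisons. Beside this stood 9.18%, 0.276%, 14.1% and 7.69% of the genes it gave an adjusted p, in that order. Limma voom called 3 members in the 4-group test, 4 in spleen-strengthening against blood-activating and 6 in yin-nourishing against blood-activating. Without GLRX2 these were 2 (SOD3 and GLRX), 3 (SOD3, GLRX and GLRX5) and 5 (the same 3 with SOD1 and GLRX3). Beside them stood 8.77%, 19.7% and 16.9% of all tested genes. Leaving out each library in turn gave 0 to 2 members in the 4-group test (2 without heat-clearing 3). In spleen-strengthening against blood-activating it gave 0 to 1 (1 without heat-clearing 3 or blood-activating 4). In yin-nourishing against blood-activating it gave 0 to 2 (2 without blood-activating 4). Where 2 members were called, GLRX2 was 1 of them. Over all genes edgeR called 2 in heat-clearing against spleen-strengthening and 0 elsewhere, against 2175 in the 4-group test, 4880 in spleen-strengthening against blood-activating and 4182 in yin-nourishing against blood-activating in limma voom. DESeq2 called 1259, 1933 and 1055 in the same comparisons and 67, 32, 10 and 30 in heat-clearing against spleen-strengthening, yin-nourishing and blood-activating and in spleen-strengthening against yin-nourishing. Without blood-activating 4, edgeR called 2002 genes in spleen-strengthening and 361 in yin-nourishing against blood-activating, and without heat-clearing 3 it called 378 in the 4-group test and 311 in spleen-strengthening against blood-activating. Among the members' largest differences, only that of TXN changed sign, from -0.22 to 0.14 without the RN7SK-high libraries and 0.064 with a term for them; the cause was not tested. With the replicate number as a block, 0 members were called and the SOD3 difference between spleen-strengthening and blood-activating was 0.69 on the log2 scale. Same-numbered samples showed no strong shared deviation (correlation over 0.1 in 1 of 12 pairs, median 0.00684). What the numbers stand for is not given, and low correlations cannot settle whether they pair the samples. With 498 counts or more for every member in every library, the spread between libraries and not counting error limits these comparisons.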
